A study of Mus musculus with 10 samples.

Results

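Oxidative phosphorylation is carried out by 5 large protein complexes of the inner mitochondrial membrane, and the genes for their subunits were examined here in mouse TH2 cells grown from vitamin D-deficient and vitamin D-sufficient mice. The members were chosen by name. They are the protein-coding genes of GENCODE M21 (build GRCm38) whose symbols begin with Nduf, Sdha to Sdhd, Uqcr, Cox4 to Cox8, Atp5 or mt-. The rule found 110 members among the 49671 gene IDs of the count table: 83 nuclear genes for subunits, 13 genes of the mitochondrial genome for subunits, and 14 nuclear genes for assembly factors and other proteins that are not subunits. Of the 110, 100 had enough reads to be tested: 78 nuclear subunits, 8 mitochondrially encoded subunits and all 14 factors.

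TH2 cells are CD4+ T cells of the type 2 helper lineage, known for the cytokines IL-4, IL-5 and IL-13. All libraries were made on day 5 of TH2 polarisation of naive CD4+ T cells from wild-type C57BL/6 mice. For the 3 control libraries the mice were fed vitamin D3 at 400 IU per kg of diet. The 7 deficient libraries came from second-generation offspring of mice kept free of UV light on the diet TD97340, which lacks vitamin D. So diet, light and the diet of the previous generation differ together between the groups. In batch 1 there were 2 control and 5 deficient libraries, and in batch 2 there were 1 and 2. Whether each library is from another mouse is not stated in the labels. The p-values thus reflect spread between libraries that may be technical.

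Electrons enter the respiratory chain from NADH at complex I and from succinate at complex II. They pass through ubiquinone to complex III and through cytochrome c to complex IV, which reduces oxygen. Complexes I, III and IV pump protons across the inner membrane, and complex V, the ATP synthase, lets them return and makes ATP. Complex II is built from nuclear genes alone, while the other complexes combine nuclear subunits with a few subunits that the mitochondrial genome encodes. Activated T cells raise both glycolysis and respiration as they grow and divide.

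Levels are given as CPM, a gene's counts scaled to the total counts of its library, and fold changes as log2 of deficient over control with the standard error (SE) from an edgeR quasi-likelihood fit over 13699 genes with batch as a term. The threshold was an adjusted p of 0.05 (Benjamini-Hochberg). Totals ran from 5800698 to 6462146 counts in control libraries and from 7029207 to 13433276 in deficient libraries. Of all genes tested, 58.0% passed, 29.4% higher and 28.6% lower in deficient cells, so a passing gene is the common case in this comparison. Of 9 helper T cell markers, all of them present in every library, 5 were lower and 2 higher in deficient cells, and their summed level was 1637 to 1689 CPM in control and 1144 to 1290 CPM in deficient libraries. Among the lower ones were Cd4 at 298 to 396 against 707 to 734 CPM and Gata3 at 32.9 to 43.1 against 56.9 to 65.4 CPM, and the higher ones were Il13 and Il5. Of 10 markers of CD8+ and cytotoxic cells, 8 were higher in deficient libraries. Their summed level was 99.4 to 202 CPM in control and 687 to 1958 CPM in deficient libraries. Of 8 B cell markers 3 were higher and 0 lower, with a summed level of 12.5 to 105 and 73.3 to 351 CPM. Of 7 dendritic cell markers 4 were tested, with 2 higher and 0 lower, at 10.9 to 15.9 and 30.7 to 45.2 CPM in sum. The higher ones were Zbtb46 and Batf3. Itgax and Flt3 did not pass, at -0.12 and 0.81 on the log2 scale, and Xcr1, Clec9a and Siglech had too few reads to be tested. Of 7 macrophage and monocyte markers 3 were tested, with 1 higher and 1 lower, at 15.7 to 17.8 and 5.53 to 8.42 CPM in sum. Neutrophil and erythroid markers summed to at most 0.854 and 0.606 CPM. Of 8 markers of dividing cells 5 were lower and 2 higher, with a summed level of 3621 to 3784 CPM in control and 1864 to 3020 CPM in deficient libraries. The part of these differences in the values below was not tested. In cultures of this kind, fewer cells of a type and less RNA per cell cannot be told apart.

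The subunit genes did not move as a block. Of the 100 members tested, 37 were higher, 25 were lower and 38 did not pass. Among the 78 nuclear subunits 31 were higher and 21 lower, which is 66.7% past the threshold, beside 58.0% of all genes. Their median log2 fold change was 0.07, beside 0.02 for all genes tested. Changes were small for most of them, with a median size of 0.30 on the log2 scale, beside 0.46 for all genes. Only 6 members passed with a change of at least 2-fold (19.0% of all genes did): Cox6a2, Cox6b2, Atp5g1, Uqcrq and mt-Cytb were higher, and Uqcrh was lower. In 34 of the 78 tested nuclear subunits every deficient library lay above every control library in CPM, and in 13 every one lay below, where 29.4% and 21.4% of all genes tested did so, or 50.8% in either direction.

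**Figure D1:**
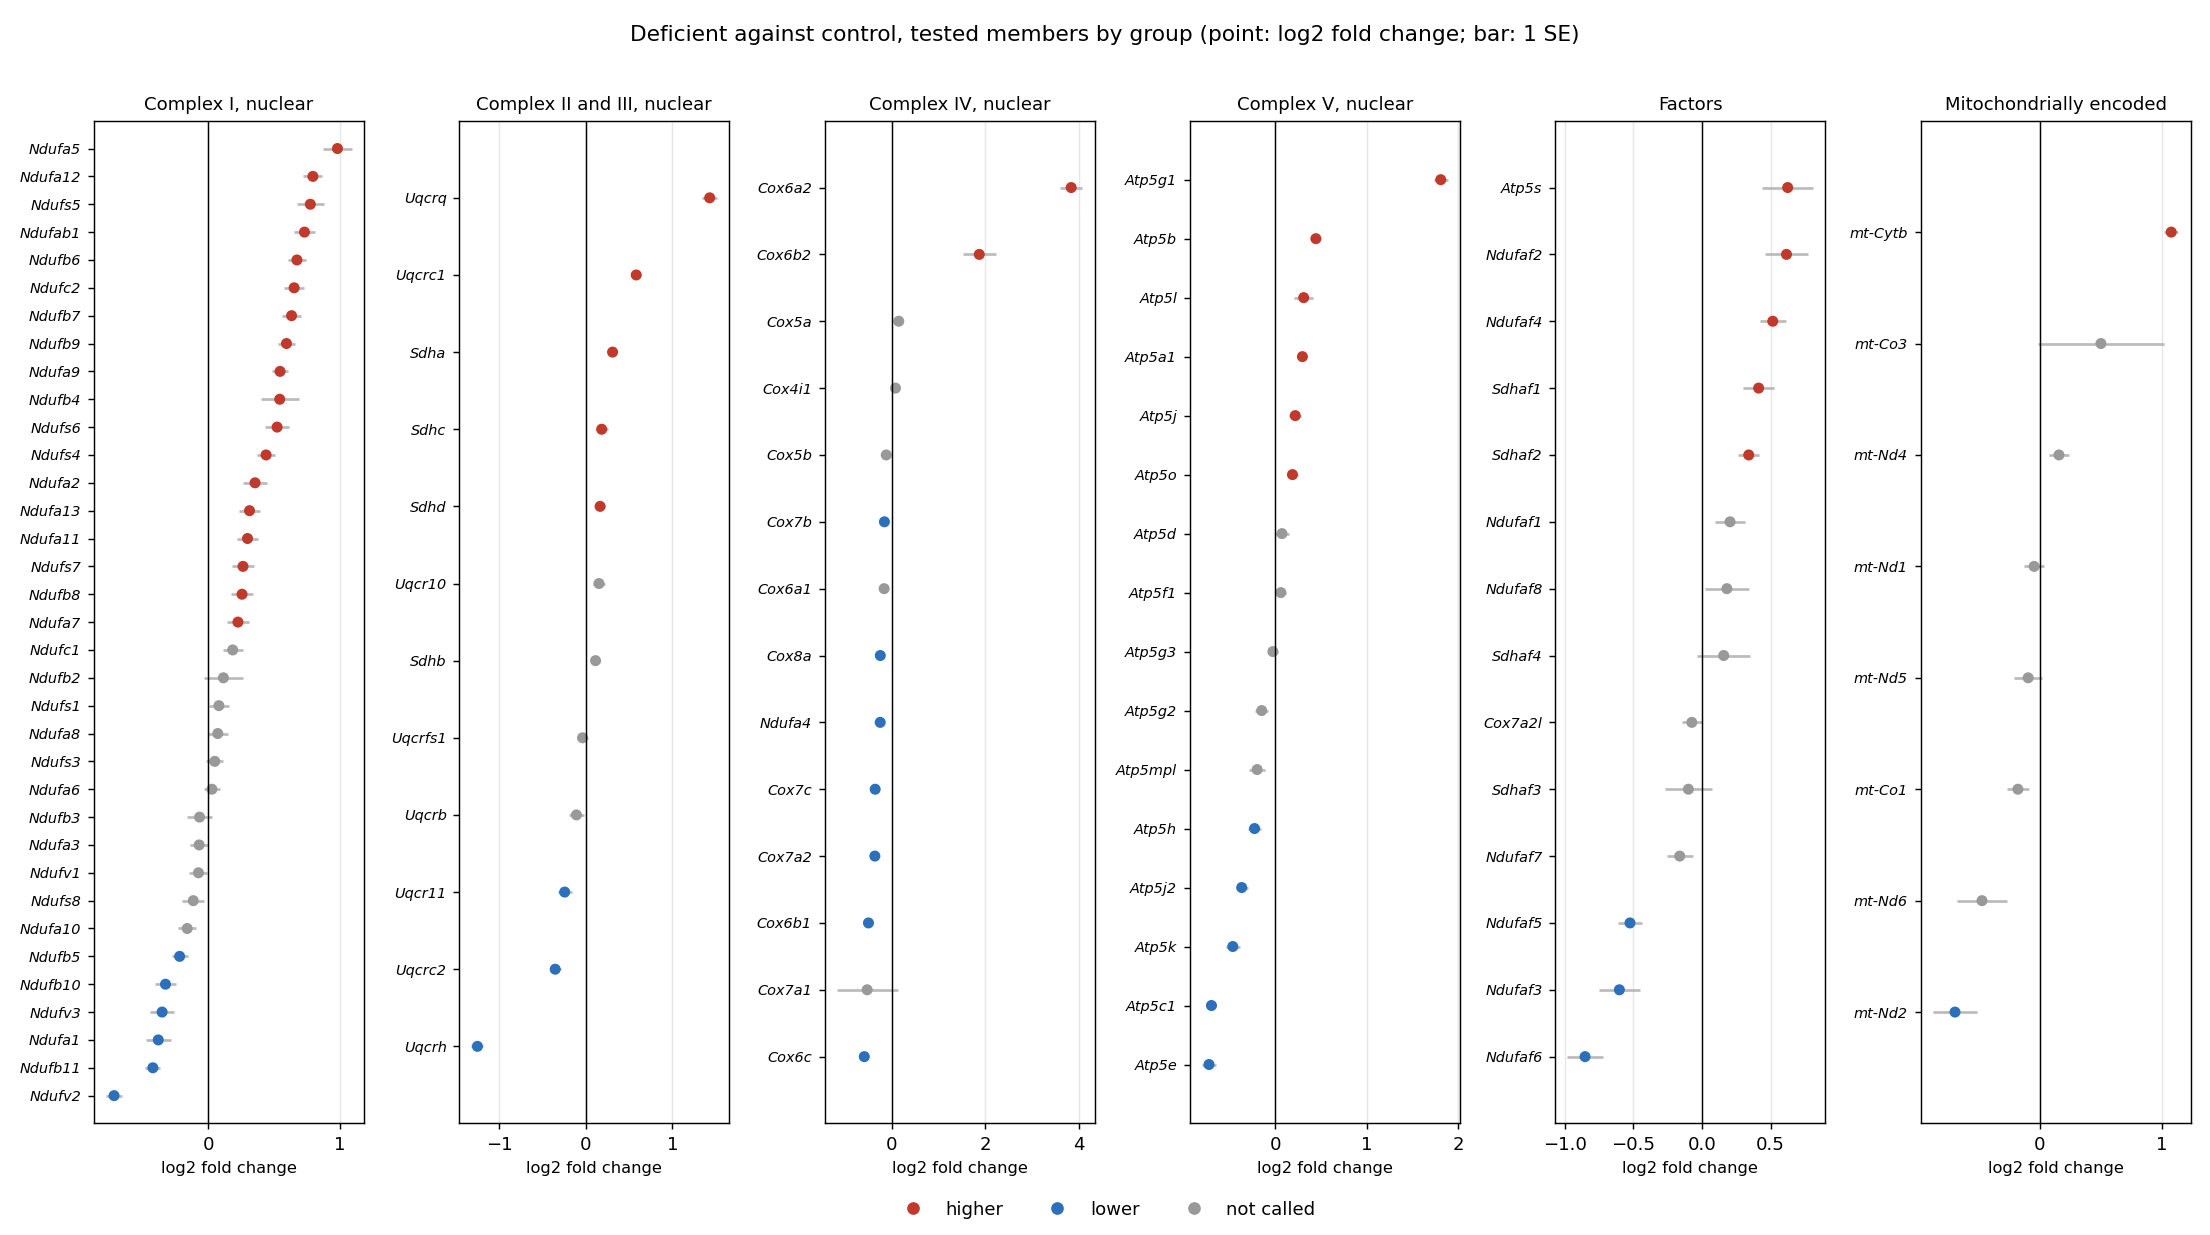
Log2 fold change of deficient over control (x axis) for 99 tested members (y axis, by group), with bars of 1 SE and colour by the test. The axes differ between panels. Complex I leans to the right with 18 members higher and 6 lower, complex IV leans to the left with 7 lower, and complexes III and V hold large changes of both signs.

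Complex I, the NADH dehydrogenase, leaned upward. Of its 36 nuclear subunits 18 were higher, 6 were lower and 12 did not pass. The summed level was 2446 to 2557 CPM in control and 2727 to 3048 CPM in deficient libraries, so the groups did not overlap. The 7 nuclear core subunits, which hold the flavin and most iron-sulfur clusters, are surrounded by 29 accessory subunits. Of the accessory subunits 17 were higher and 5 lower, with a median log2 fold change of 0.30. Of the core subunits 1 was higher and 1 lower, with a median of 0.05, and no test of the difference between these subsets was made.

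Ndufa5, an accessory subunit of the matrix arm, had the largest rise in complex I. The control libraries had 15.0, 18.9 and 20.4 CPM, and deficient libraries 1 to 7 had 31.8, 41.2, 39.4, 39.8, 37.4, 40.1 and 35.3 CPM. Every deficient library lay above every control library, and the log2 fold change was 0.98 with an SE of 0.11 (adjusted p = 1.73e-06, edgeR). Ndufs5 rose by 0.77 on the log2 scale, and Ndufab1, the mitochondrial acyl carrier protein, by 0.73. The membrane arm subunits Ndufb6, Ndufc2, Ndufb7 and Ndufb9 rose by 0.67, 0.65, 0.63 and 0.59. Ndufs4, an accessory subunit whose loss is known to cause complex I deficiency in mice, rose by 0.44.

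The largest fall in complex I was in a core subunit. Ndufv2, which holds an iron-sulfur cluster beside the flavin site, stood at 161, 150 and 157 CPM in control libraries and between 93.2 and 106 CPM (median 101) in deficient libraries. The groups were well apart, and the log2 fold change was -0.72 (SE 0.06, adjusted p = 9.66e-08). Ndufb11, Ndufa1, Ndufv3, Ndufb10 and Ndufb5 fell by 0.42, 0.38, 0.35, 0.33 and 0.22 on the log2 scale. The gene Ndufb11 overlaps Rbm10 on the opposite strand, whose log2 fold change was -0.47, and as the counting's strand setting is unknown here, reads of the pair cannot be fully told apart. Other core subunits of the matrix arm gave small values. Ndufs1, Ndufs3, Ndufs8 and Ndufv1 lay between -0.12 and 0.08 and did not pass, and Ndufs7 rose by 0.26. The accessory subunit Ndufa6 did not pass at 0.03.

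Complex II, the succinate dehydrogenase that also serves the tricarboxylic acid cycle, had 3 of 4 subunits higher. Sdha, the flavoprotein, stood at 189, 202 and 203 CPM in control libraries and between 246 and 276 CPM (median 259) in deficient libraries. The groups did not overlap, and the log2 fold change was 0.31 (SE 0.05, adjusted p = 0.000123). The membrane anchors Sdhc and Sdhd had log2 fold changes of 0.18 (adjusted p = 0.0373) and 0.16 (adjusted p = 0.0273), and lost the call in 13 and 8 of 27 other settings. Sdhb, the iron-sulfur subunit, had a value of 0.11 that did not pass (adjusted p = 0.104). All 4 genes had every deficient library above every control library in CPM, as did 29.4% of all genes tested.

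Complex III, the cytochrome bc1 complex, held opposite changes among partner subunits. Of its 8 tested nuclear subunits 2 were higher and 3 lower, and the largest changes of each sign were in 2 small supernumerary subunits. Uqcrh, the hinge protein that contacts cytochrome c1, stood at 299, 273 and 285 CPM in control libraries and at 115, 118, 124, 120, 142, 138 and 134 CPM in deficient libraries. Every deficient library was far below every control library, and its log2 value was -1.25 with an SE of 0.07 (adjusted p = 1.04e-09). Uqcrq, which binds near cytochrome b, stood at 51.7, 55.0 and 46.4 CPM in control libraries and at 154, 153, 156, 136, 135, 150 and 138 CPM in deficient libraries. It rose by 1.43 (log2, SE of 0.08, adjusted p = 2.11e-09). In CPM Uqcrh averaged 286 in control and 127 in deficient libraries, and Uqcrq 51.0 and 146, so Uqcrq was the higher in deficient libraries. Per kilobase of exon, Uqcrh averaged 231 CPM in control and 103 CPM in deficient libraries, and Uqcrq 27.9 and 79.8 CPM. By that measure Uqcrh stayed the higher of the pair. It divides by all annotated exon bases, 1237 for Uqcrh and 1831 for Uqcrq, so the order depends on the length used.

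The core proteins of complex III also parted. Uqcrc1 stood at 139, 152 and 141 CPM in control libraries and between 219 and 243 CPM (median 227) in deficient libraries, and its log2 value was 0.58 with an SE of 0.06 (adjusted p = 4.95e-07). Uqcrc2 stood at 323, 316 and 322 CPM in control libraries and between 236 and 288 CPM (median 271) in deficient libraries. Its log2 value was -0.36 with an SE of 0.06 (adjusted p = 0.00018, edgeR). The Rieske iron-sulfur protein Uqcrfs1 did not pass, at -0.04, nor did the small subunit Uqcr10, at 0.15, while Uqcr11, another small subunit, fell by 0.25. By library totals, opposite changes nearly cancelled in the sum of the 8 genes. The sum was 1098 to 1140 CPM in control and 1033 to 1154 CPM in deficient libraries. With the fit's scaling factors the deficient sums stand lower beside control, so the near cancelling depends on the scaling. Of the 50-base stretches of Uqcrc2, 17.6% also occur in other annotated genes.

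Complex IV, the cytochrome c oxidase, leaned the other way from complex I. Of 14 nuclear subunits tested 7 were lower, 2 were higher and 5 did not pass, with a median log2 fold change of -0.20. The widely expressed subunits Cox6c, Cox6b1, Cox7a2 and Cox7c fell by 0.58, 0.49, 0.36 and 0.35 on the log2 scale. Ndufa4, first described in complex I and now placed in complex IV, fell by 0.24, as did Cox8a. Cox7b stood at the edge, at -0.15 (adjusted p = 0.0479), and held its call in only 6 of 27 other settings. Cox4i1, Cox5a, Cox5b and Cox6a1 lay between -0.16 and 0.15 and did not pass. The gene Cox6c overlaps Vps13b on the opposite strand, which rose by 0.55 on the log2 scale, against the direction of Cox6c.

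Both members of complex IV that rose are tissue-restricted isoforms. Cox6a2 is the heart and skeletal muscle form of subunit VIa, and Cox6a1 is the form of other tissues. Cox6a2 stood at 1.03, 0.481 and 1.08 CPM in control libraries and at 10.5, 11.5, 10.7, 12.7, 14.3, 14.5 and 17.2 CPM in deficient libraries. It had the largest change of the 100 tested members, at 3.84 on the log2 scale (SE 0.24, adjusted p = 3.61e-09). The control value rests on 16 reads over 3 libraries and the deficient value on 1044 reads over 7. Per kilobase of exon Cox6a2 remained the minor form, at 1.27 CPM in control and 19.2 CPM in deficient libraries, beside 214 and 204 CPM for Cox6a1.

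Cox6b2, a form of subunit VIb best known from testis, stood at 1.72, 2.40 and 2.48 CPM in control libraries. In deficient libraries 1 to 7 it stood at 5.18, 5.00, 9.10, 5.32, 11.5, 12.8 and 10.9 CPM. Every deficient library lay above the controls, and the log2 fold change was 1.88 (SE 0.35, adjusted p = 0.00049). Deficient libraries 5 to 7, which also have the highest summed level of cytotoxic markers, averaged 11.8 CPM for Cox6b2 and 15.3 CPM for Cox6a2. Deficient libraries 1 to 4 averaged 6.15 and 11.3 CPM. The other restricted isoforms were at or near 0. Cox8b and Cox8c had 0 counts in every library, which allows up to 0.223 CPM in the deepest and 0.517 CPM in the shallowest library by counting error alone. Cox4i2, Cox7b2 and Ndufa4l2 reached at most 0.172 CPM and were not tested, and Cox7a1 reached 1.08 CPM at most and did not pass.

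Complex V, the ATP synthase, was again divided. Of its 16 nuclear subunits 6 were higher and 5 lower. The division ran through the F1 catalytic head itself. Atp5b, the catalytic beta subunit and the nuclear member with the most counts, stood at 1305, 1312 and 1326 CPM in control libraries and between 1813 and 1961 CPM (median 1894) in deficient libraries. It rose by 0.44 (log2, SE of 0.04, adjusted p = 2.68e-07), and Atp5a1, the alpha subunit, rose by 0.30. The gamma subunit Atp5c1, which forms the turning stalk, stood at 482, 480 and 521 CPM in control libraries and between 311 and 344 CPM (median 322) in deficient libraries. Its log2 fold change was -0.70 (SE 0.05, adjusted p = 1.67e-08). Atp5e, the epsilon subunit of the same stalk, fell by 0.72, and Atp5d, the delta subunit, did not pass at 0.07. Atp5f1, a part of the peripheral stalk that holds the head in place, did not pass at 0.06.

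Of the 3 genes that encode the same mature c subunit of the membrane ring, 1 changed. Atp5g1 stood at 48.6, 43.4 and 48.3 CPM in control libraries and at 171, 175, 183, 189, 158, 173 and 168 CPM in deficient libraries. The groups were far apart, and its log2 value was 1.81 with an SE of 0.07 (adjusted p = 4.8e-11). Atp5g2 and Atp5g3 had values of -0.15 and -0.03 that did not pass. Per kilobase of exon, Atp5g1 stood at 9.52 CPM in control libraries, beside 48.4 for Atp5g2 and 43.5 for Atp5g3, and at 35.4 CPM in deficient libraries, beside 46.2 and 45.5. By this measure Atp5g1 came closer to the other genes and stayed below both. It divides by all annotated exon bases, 4912 for Atp5g1, 1675 for Atp5g2 and 2181 for Atp5g3. In CPM without this division Atp5g1 averaged 46.8 in control and 174 in deficient libraries. Atp5g2 averaged 81.1 and 77.5, and Atp5g3 94.9 and 99.1. By CPM alone Atp5g1 was thus the highest of the 3 in deficient libraries, and the order depends on the length used. Among the membrane and peripheral stalk subunits, Atp5l, Atp5j and Atp5o rose by 0.31, 0.22 and 0.19, and Atp5k, Atp5j2 and Atp5h fell by 0.46, 0.37 and 0.23.

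**Figure D2:**
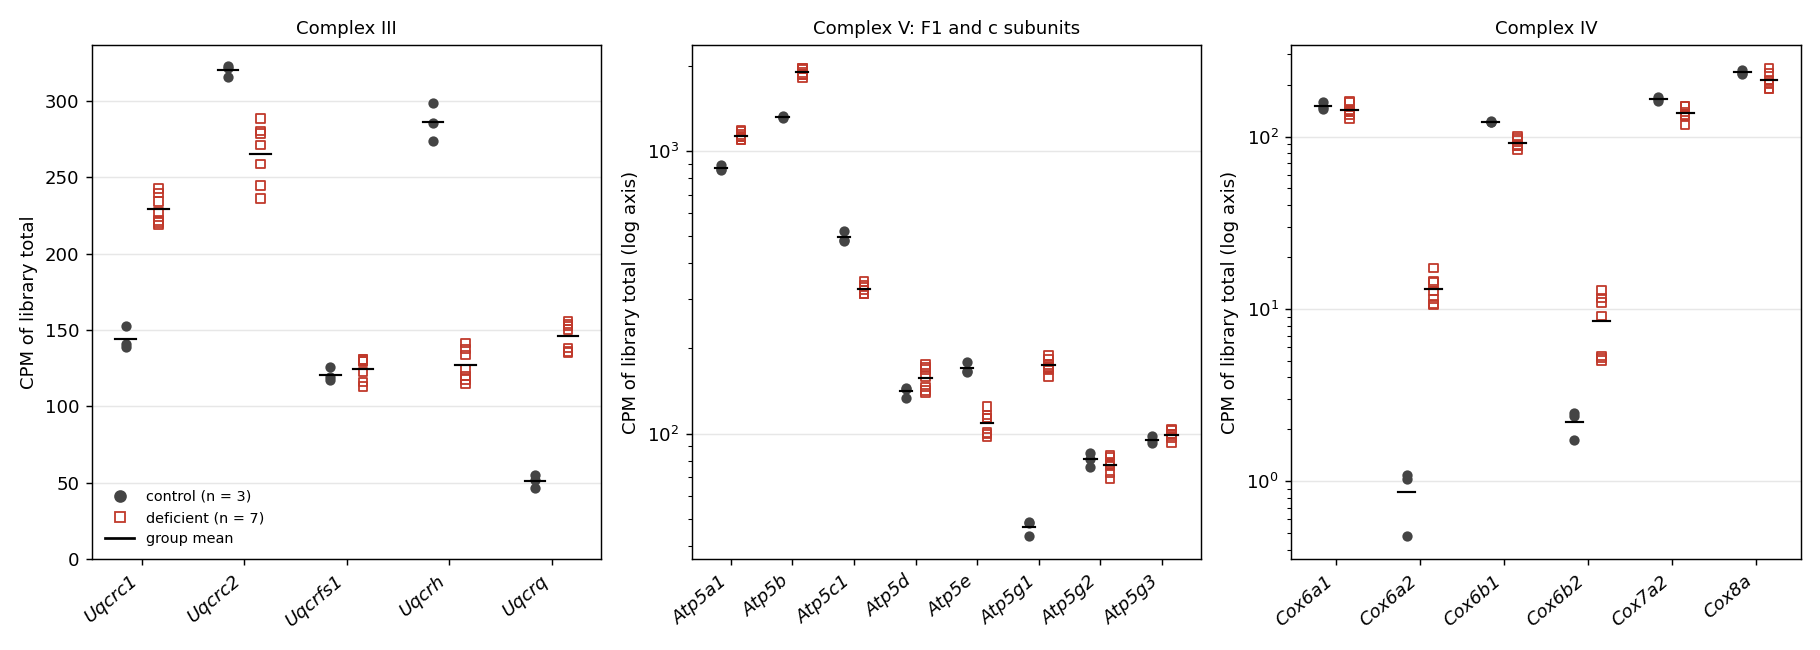
CPM in each control (grey circles, n = 3) and deficient (red squares, n = 7) library for subunits of complexes III, V and IV, with group means as black lines. The left axis is linear from 0 and the other 2 are log axes. In complex III Uqcrq and Uqcrc1 lie higher and Uqcrh and Uqcrc2 lower in deficient libraries, and among the c subunit genes only Atp5g1 is apart between the groups.

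The counts of Atp5g1 and Ndufa12 mirror those of near-identical pseudogenes. A pseudogene here is a copy of the spliced transcript elsewhere in the nuclear genome, and a read that lies in a shared stretch can be placed on either. The windows given here each end at a base that differs (in capitals), in coding sequence read 5′ to 3′ from GRCm38, with positions counted from the first coding base. They show how little separates each gene from its copy.
Atp5g1, chr11:96068852-96075670 on the minus strand, bases 326 to 385: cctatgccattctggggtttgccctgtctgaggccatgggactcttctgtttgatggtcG
Gm10039, chr11:100361716-100362126 on the minus strand: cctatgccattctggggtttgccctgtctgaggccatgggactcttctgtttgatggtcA
Ndufa12, chr10:94198720-94221443 on the plus strand, bases 88 to 147: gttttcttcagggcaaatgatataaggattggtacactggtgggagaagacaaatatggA
Gm15920, chr5:130188395-130188796 on the plus strand: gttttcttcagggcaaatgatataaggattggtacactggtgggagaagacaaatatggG

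Over the 408 coding bases compared, Gm10039 differs from Atp5g1 at 1 base, G385A. Gm10039 averaged 24.8 ± 3.80 CPM (SD, n = 3) in control libraries and lay between 1.16 and 2.13 CPM in deficient libraries, opposite to Atp5g1. Gene and copy together came to 71.6 ± 6.17 CPM (SD, n = 3) in control and 176 ± 10.1 CPM (SD, n = 7) in deficient libraries, so the sum was 2.45 times higher. When counts of pseudogene copies were added to the members before the fit, Atp5g1 rose by 1.21 instead of 1.81 on the log2 scale (adjusted p = 4.49e-09, edgeR).

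Ndufa12, an accessory subunit of complex I, is the other such case. Its copy Gm15920 differs at 2 of 399 bases, A147G and T426C. Ndufa12 stood at 35.4 to 37.9 CPM in control and 63.6 to 70.3 CPM in deficient libraries (log2 fold change 0.79, SE 0.07), and Gm15920 at 9.94 to 11.5 and 1.99 to 4.30 CPM. With the copy's counts added, Ndufa12 rose by 0.49 (adjusted p = 1.55e-05). A wider set of 36 pseudogenes, each sharing at least 3% of a member's stretches, included copies of mitochondrial genes. Adding their counts to 28 members left the counts of higher and lower nuclear subunits at 31 and 21.

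**Figure D3:**
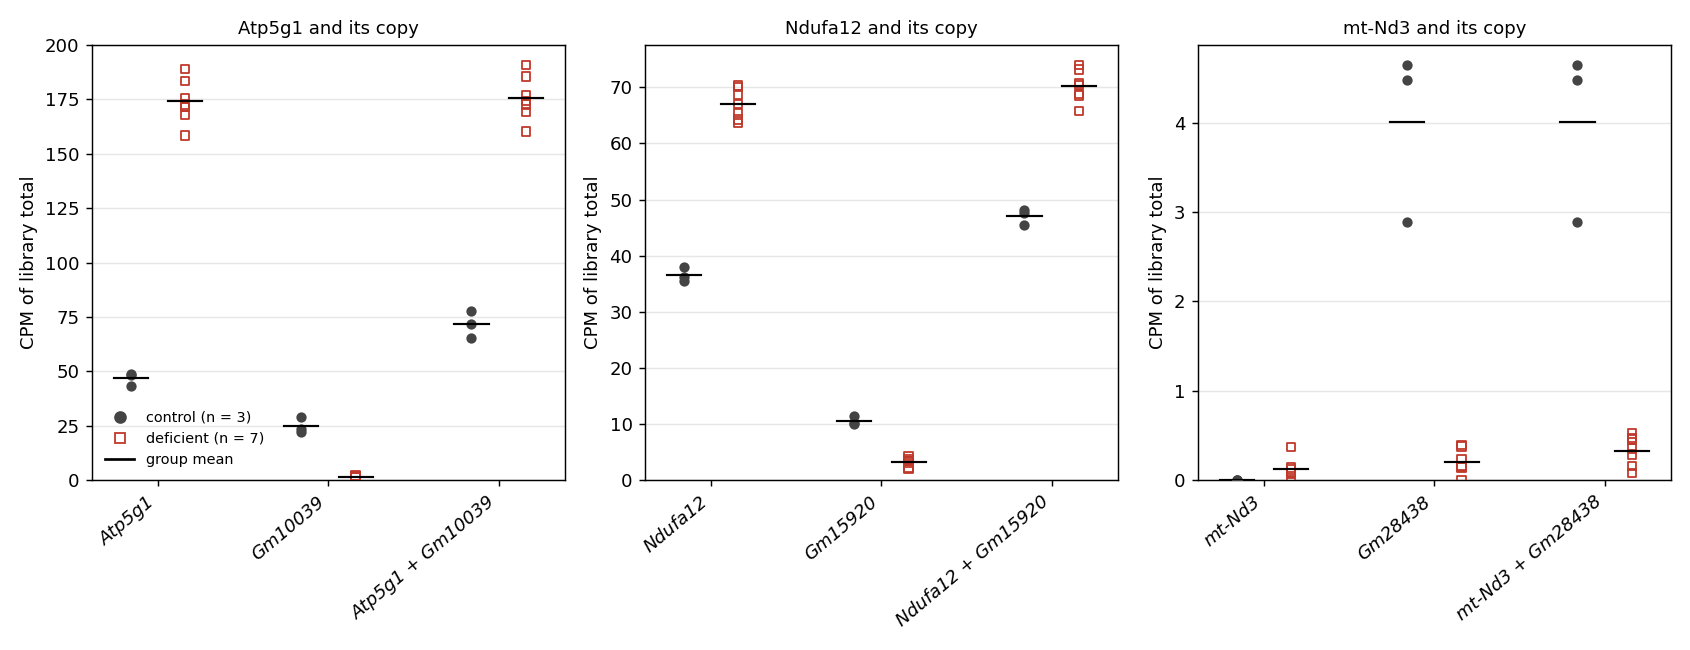
CPM in each control (grey circles, n = 3) and deficient (red squares, n = 7) library for Atp5g1, Ndufa12 and mt-Nd3, for a near-identical copy of each, and for their sum, with group means as black lines on linear axes from 0. The copies Gm10039, Gm15920 and Gm28438 are all lower in the deficient libraries, and the sums of Atp5g1 and Ndufa12 with their copies remain higher.

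The mitochondrial genome encodes 13 subunits, of which 8 were tested, and 2 passed in opposite directions. The genes are transcribed as long precursors from which the tRNAs are cut out to free the mRNAs. mt-Cytb, the only mitochondrially encoded subunit of complex III, stood at 555, 541 and 574 CPM in control libraries and at 1114, 1336, 1201, 1216, 1292, 1297 and 1252 CPM in deficient libraries. No values overlapped, and the log2 fold change was 1.08 (SE 0.06, adjusted p = 7.63e-10). It shares 0% of its 50-base stretches with another annotated gene.

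mt-Nd2, a complex I subunit, fell. It stood at 266, 238 and 231 CPM in control libraries and at 192, 214, 201, 151, 120, 120 and 148 CPM in deficient libraries, and its log2 value was -0.69 with an SE of 0.18 (adjusted p = 0.0102). Every deficient library lay below the controls, but deficient libraries 5 to 7 averaged 129 CPM and libraries 1 to 4 averaged 190. The fall did not pass without control library 3 (-0.62, adjusted p = 0.0584) or in batch 1 alone (-0.61, adjusted p = 0.0672). The ratio of mt-Cytb to mt-Nd2 in CPM was 2.08 to 2.49 in control and 5.80 to 10.8 in deficient libraries.

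The others did not pass. mt-Nd1, mt-Nd5 and mt-Nd4 had log2 fold changes of -0.04, -0.09 and 0.16, and mt-Nd6, the only protein gene on the other strand of the mitochondrial genome, had -0.47 (adjusted p = 0.0756). mt-Co1, the catalytic core of complex IV, took most of the mitochondrial mRNA counts, at 13920, 12732 and 13809 CPM in control libraries. In deficient libraries 1 to 7 it stood at 10295, 12172, 11700, 12580, 14780, 14339 and 12633 CPM, a range that covers the control values. Its share of all mitochondrial mRNA counts was 87.1 to 87.7% in control and 80.2 to 85.7% in deficient libraries. The sum of the 13 mRNAs was 14624 to 15980 CPM in control and 12842 to 17255 CPM in deficient libraries. Of the 13, mt-Co2, mt-Co3, mt-Atp6, mt-Atp8, mt-Nd3 and mt-Nd4l had almost no counts and, as told below, cannot be read as levels. The share and the sums thus describe counts and not amounts of mitochondrial mRNA. Without mt-Co1 it was 1891 to 2060 and 2475 to 2997 CPM, and mt-Cytb is the largest part of that sum in deficient libraries.

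**Figure D4:**
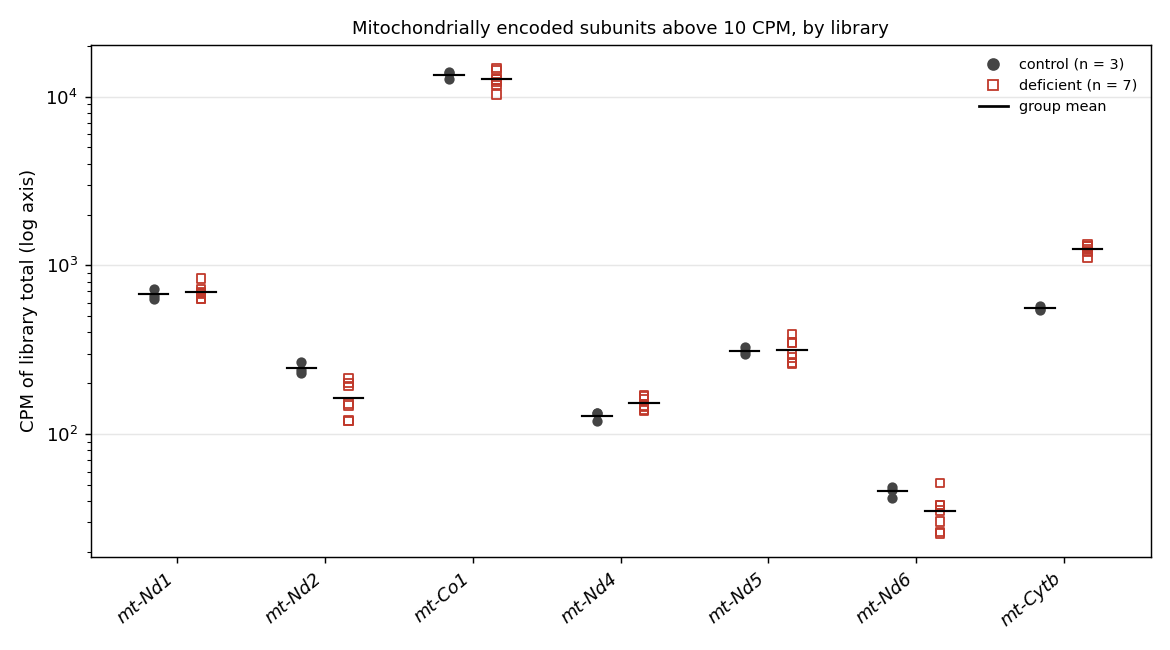
CPM on a log axis of the 7 mitochondrially encoded subunits above 10 CPM in each control (grey circles, n = 3) and deficient (red squares, n = 7) library, with group means as black lines. Of these, mt-Cytb and mt-Nd2 are the genes that passed the test, mt-Cytb near 1244 CPM against 556 and mt-Nd2 near 164 against 245.

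A further 6 mitochondrial genes, listed at or near 0 in every library, cannot be read as levels. mt-Co2, mt-Co3, mt-Atp6, mt-Atp8, mt-Nd3 and mt-Nd4l reached at most 1.24 CPM, while mt-Co1, mt-Nd4, mt-Nd5 and mt-Cytb stood above 100 CPM in every library. Of the 6, only mt-Co3 had enough reads to be tested, and it did not pass at 0.50. Of these 6 genes, 5 share 98.0 to 100% of their 50-base stretches with annotated copies of mitochondrial DNA on nuclear chromosome 1, and mt-Atp8 shares 0%. To show this, the first 60 coding bases of 2 of them and of their copies follow from GRCm38, with a base that differs in capitals.
mt-Atp6, chrM:7927-8607 on the plus strand: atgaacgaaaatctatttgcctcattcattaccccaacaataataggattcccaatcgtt
Gm10925, chr1:24613974-24614651 on the minus strand: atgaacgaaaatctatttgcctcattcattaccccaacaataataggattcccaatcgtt
mt-Nd3, chrM:9459-9806 on the plus strand: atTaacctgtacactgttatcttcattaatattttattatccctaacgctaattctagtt
Gm28438, chr1:24612775-24613119 on the minus strand: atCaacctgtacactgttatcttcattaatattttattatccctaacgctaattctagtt

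Gm10925 is identical to mt-Atp6 over all 678 bases compared, and the counts of both were low, at most 1.28 CPM in any library. Gm28438 differs from mt-Nd3 at 1 of 345 bases, T3C, counted from the first coding base. The copy stood at 4.48, 2.89 and 4.64 CPM in control libraries and at 0 to 0.391 CPM in deficient libraries, without overlap. mt-Nd3 itself had 0 counts in the 3 control libraries and 0 to 0.372 CPM in deficient libraries. The pooled counts of mt-Nd3 and its copies entered the test and were lower in deficient cells, at -3.60 on the log2 scale (SE 0.37, adjusted p = 9.26e-07, edgeR). As mt-Nd3 had 0 counts in the control libraries, this value follows the counts of the copies and is not a change in the level of mt-Nd3. The labels give the same strain and genotype for all libraries. Whether the libraries of both groups carry the same base at T3C, or at the bases that separate Atp5g1 and Ndufa12 from their copies, was not tested, since the table holds counts and no base calls, so these values cannot be tied to diet alone. mt-Co1 and mt-Nd4 share 51.1% and 62.2% of their stretches with such copies, while mt-Nd1, mt-Nd6 and mt-Cytb share 0%.

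The 14 factors help build the complexes or bind them. Of these, 5 were higher and 3 lower, and without control library 1 only 3 were higher. Among the complex I assembly factors the values went both ways: Ndufaf2 and Ndufaf4 rose by 0.62 and 0.52 on the log2 scale, and Ndufaf6, Ndufaf3 and Ndufaf5 fell by 0.85, 0.60 and 0.52. Ndufaf6 averaged 17.7 CPM in control libraries and lay between 7.97 and 12.9 CPM (median 10.5) in deficient libraries, without overlap. The complex II assembly factors Sdhaf1 and Sdhaf2 rose by 0.41 and 0.34. Atp5s, a protein related to a coupling factor of the ATP synthase, rose by 0.62, but it did not pass without control library 1 or control library 2 or in batch 2 alone, and its value fell as low as 0.08 over the settings run. Cox7a2l, which joins complexes III and IV into supercomplexes, had the most counts of the 14, at 357, 337 and 362 CPM in control libraries, and did not pass at -0.07. Several of these genes overlap others on the opposite strand. The overlaps given here are between whole gene bounds with introns included, so not all of the bases are exon. Ndufaf2 shares 4727 bases with Smim15, which rose by 0.50, and Ndufaf3 shares 48 bases with Impdh2, which fell by 1.13. Sdhaf1 shares 1733 bases with E130208F15Rik, whose log2 fold change was -1.09, against the direction of Sdhaf1. Sdhaf2 shares 877 bases with Cpsf7, which did not pass at 0.15. The values of Ndufaf2, Ndufaf3, Sdhaf1 and Sdhaf2 are thus uncertain.

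Genes outside the naming rule that serve the same chain were counted as well. These lists were written from general knowledge, and their counts stand beside 29.4% of all genes higher and 28.6% lower. Of 18 genes for electron carriers and cytochrome c1, 11 were higher and 1 lower, with a median log2 fold change of 0.36. Coq2, Coq7 and Coq10b, of ubiquinone synthesis and handling, rose by 1.09, 0.79 and 0.78. Cycs, the mobile cytochrome c, and Cyc1, the cytochrome c1 that the Uqcrh protein contacts, rose by 0.35 and 0.21. Coq6, also of ubiquinone synthesis, fell by 0.35. Of 41 further assembly factors 16 were higher and 5 lower, with a median of 0.14. Uqcc1, an assembly factor of complex III, rose by 0.70, and Bcs1l, which inserts the Rieske protein into the same complex, fell by 0.67. Among complex IV assembly genes Higd1a and Coa5 rose by 0.60 and 0.47, and Coa4 and Cox15, which makes haem a, fell by 0.75 and 0.41.

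The machinery that expresses the mitochondrial genome also leaned upward. Of 77 mitochondrial ribosomal proteins 41 were higher and 6 lower, with a median log2 fold change of 0.26. Mrpl35 rose by 1.36, Mrpl55 by 1.21 and Mrpl20 by 1.03, and Mrpl14, Mrpl17 and Mrpl30 fell by 0.84, 0.46 and 0.39. Of 30 genes for replication, transcription and RNA processing 15 were higher and 4 lower, with a median of 0.29. Hsd17b10, a part of mitochondrial RNase P, rose by 1.14, Lrpprc, which stabilises mitochondrial mRNAs, by 0.98, Rexo2, an exonuclease of short RNAs, by 0.98, and Polrmt, the mitochondrial RNA polymerase, by 0.68. Polg and Polg2, both subunits of the mitochondrial DNA polymerase, fell by 0.58 and 0.90, and Mtpap, the mitochondrial poly(A) polymerase, fell by 0.47. Tfam, which packs mitochondrial DNA, did not pass at 0.14.

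The remaining lists went different ways. Of 17 inner membrane carriers and proton users 10 were lower and 4 higher, with a median log2 fold change of -0.33. Slc25a5 and Slc25a4, the exchangers of ADP and ATP, fell by 1.02 and 0.47, Slc25a1, the citrate carrier, by 0.95 and Ucp2 by 0.49, while Vdac3 of the outer membrane rose by 1.03 and the pyruvate carrier subunits Mpc1 and Mpc2 by 0.65 and 0.31. Nnt, the proton-driven transhydrogenase, did not pass at 0.11. Of 22 genes of the tricarboxylic acid cycle 7 were higher and 8 lower. Idh2 and Cs, the citrate synthase, fell by 0.71 and 0.51 and Idh3b by 0.32. Mdh2 and Pdhx rose by 0.41 and 0.44, and Dld, a subunit that several dehydrogenase complexes share, rose by 0.92. Of 16 genes of mitochondrial protein quality control and antioxidant defence 8 were higher and 4 lower, with Hspa9 and Hspd1, chaperones of the matrix, up by 0.89 and 0.68 and the stress factor Ddit3 up by 0.67. The mitochondrial proteases Yme1l1 and Afg3l2 and the unfoldase Clpx fell by 0.34, 0.22 and 0.29. Of 11 nuclear regulators of mitochondrial biogenesis tested 2 were higher and 4 lower: Esrra and Nfe2l2 rose by 0.79 and 0.60, Ppard, Pprc1 and Yy1 fell by 0.84, 0.55 and 0.33, and Ppargc1b did not pass at -0.59.

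**Figure D5:**
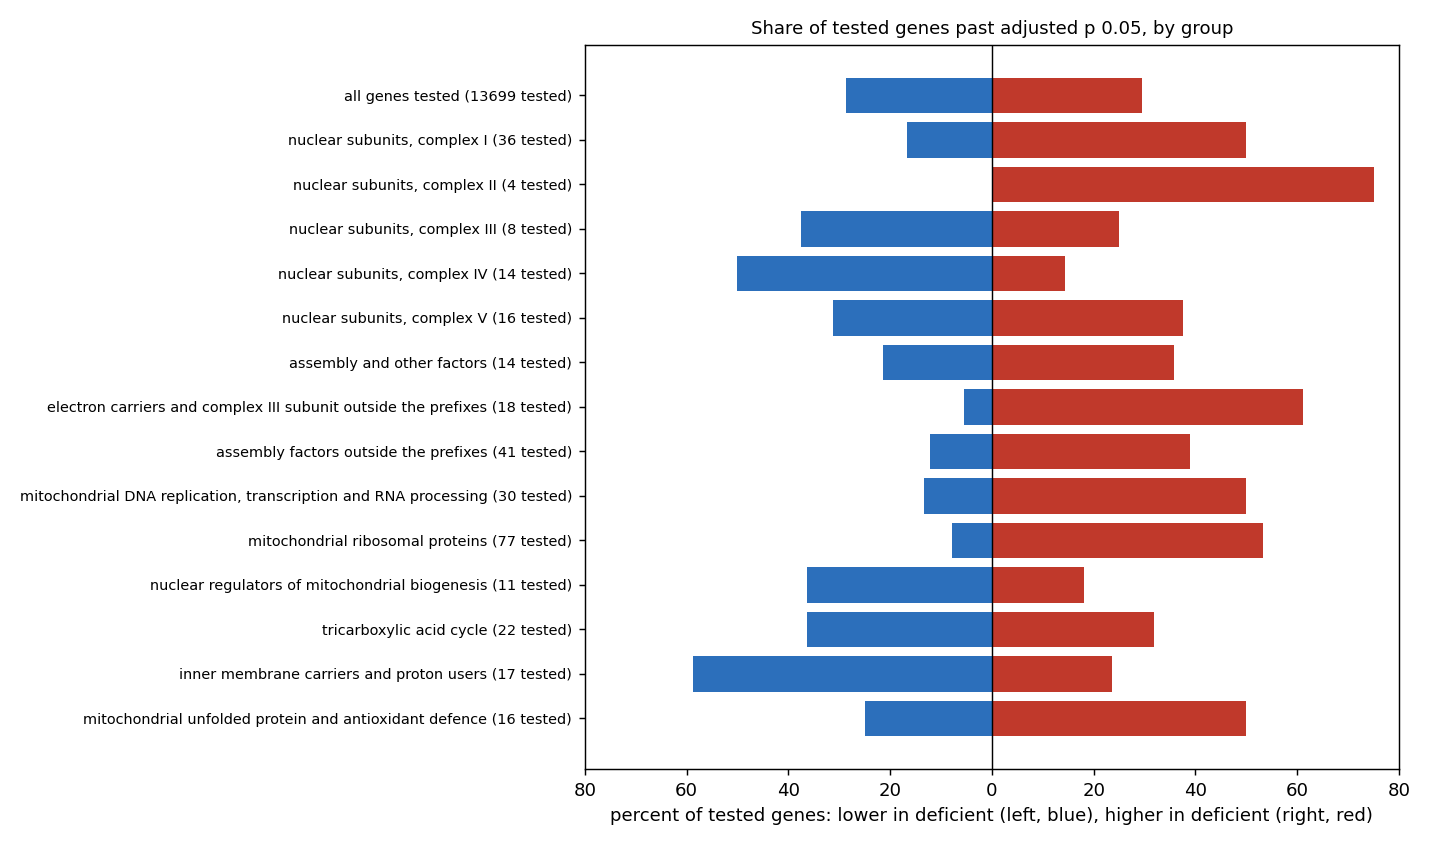
Percent of tested genes past an adjusted p of 0.05 that were higher (red, right) or lower (blue, left) in deficient cells, for all genes tested, for the nuclear subunits of each complex, for the factors and for the lists around the chain. The bar for all genes is near even at 29.4% and 28.6%, complex I and the ribosomal and electron carrier lists extend to the right, and complex IV and the carrier list extend to the left.

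Promoters were compared by short motifs that factors known to act on these genes recognise. RefSeq promoters (GRCm38.p6, from 250 bases before to 50 after each start) were matched for 80 of the 97 nuclear members, giving 85 promoters, and both strands were searched. The motif GCGCATGC of NRF1 was in 14.1% of member promoters and 2.71% of all 32851, CCGGAAG of the ETS family (GABPA) in 24.7% and 8.86%, and AAGATGGCG of YY1 in 9.41% and 1.40%. GGGCGG of SP1 was in 47.1% and 35.7%, and CCAAT of NF-Y in 42.4% and 37.4%. By direction of change, NRF1's motif was in 4 of 33 promoters of higher members and 3 of 22 of lower members, the ETS motif in 7 of 33 and 7 of 22, the YY1 motif in 5 of 33 and 1 of 22, the SP1 motif in 17 of 33 and 6 of 22, and the NF-Y motif in 12 of 33 and 12 of 22. In the 28 promoters of members that did not pass, the counts were 5 for NRF1, 7 for ETS, 2 for YY1, 16 for SP1 and 11 for NF-Y. These are descriptions of letters in a window, and no test was made.

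The 150 bases before the start of Uqcrh, the nuclear subunit of largest fall, and of Atp5g1, a subunit of large rise, are shown 5′ to 3′ from the same table with motif matches in capitals. Both genes are on the minus strand. Uqcrh holds CCAAT and, near its start, the ETS motif on the other strand, and Atp5g1 holds CCAAT on either strand and none of the other 4 motifs in these bases.
Uqcrh, chr4:116075071-116075220: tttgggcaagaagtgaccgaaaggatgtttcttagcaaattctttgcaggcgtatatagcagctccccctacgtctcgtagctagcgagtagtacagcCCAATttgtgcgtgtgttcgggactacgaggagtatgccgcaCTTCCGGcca
Atp5g1, chr11:96075632-96075781: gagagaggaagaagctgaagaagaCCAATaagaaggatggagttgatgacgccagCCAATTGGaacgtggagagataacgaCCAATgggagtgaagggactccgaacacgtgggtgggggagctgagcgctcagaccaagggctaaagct

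Summed levels placed these changes side by side. The 83 nuclear subunits came to 10043, 9971 and 10201 CPM in control libraries and to 10579, 11372, 11244, 11387, 11548, 11629 and 11075 CPM in deficient libraries, which is 1.12 times higher in the mean. Complex V came to 4179 to 4256 CPM in control and 4751 to 5144 CPM in deficient libraries, and complex II to 510 to 525 and 611 to 660 CPM, so neither pair of ranges overlapped. Complex IV came to 1727 to 1735 CPM in control and 1454 to 1758 CPM in deficient libraries, where by library totals libraries 5 and 6 were above the control values. These sums weight the most abundant genes and carry no test. They divide by library totals and leave out the fit's scaling factors, 0.942 to 0.971 in control and 0.994 to 1.06 in deficient libraries. On the fit's scale deficient sums stand lower beside control than these values, here and in the sums given above by complex. So the 1.12, the near cancelling in complex III and the overlap of complex IV depend on the scaling.

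Neither batch nor the product of diet and batch passed in any of the 100 members by edgeR (0.0% of all genes for both). Unadjusted p was below 0.05 for 6 and 4 members, and limma-voom also found 0 for the product. Cox6a2 and Cox6b2 were among the 6, with batch log2 values of 0.42 and 0.66 (adjusted p = 0.629 for both).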

How the data were processed

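RNA sequencing libraries were made with a stranded total RNA kit (TruSeq, with globin depletion), as the labels' protocols say. The deposited table gives the authors' raw counts of reads for each Ensembl gene ID in 10 libraries. Per the submitters' processing notes, the tools were STAR 2.7.10a and HTSeq 0.13.5 and the build was GRCm38. No strand setting or annotation release was given in the sources used here. Where a read fits more than 1 gene, the counting may drop or divide it, so genes with near-identical copies can read low. Groups and batches follow the labels.

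IDs were matched to GENCODE M21 (49412 of 49671, with 0.0226% of counts unmatched). Members and lists were chosen with earlier results of these data known. Counts were fitted in R 4.3.3 with edgeR 4.0.16 (filterByExpr, minimum count 10, TMM, robust glmQLFit, terms for diet and batch) over 13699 genes, with Benjamini-Hochberg adjustment; the common biological coefficient of variation was 12.7%. Interaction with batch was a second fit. Depth was 5800698 to 13433276 counts, and low genes are limited by the shallower controls. Shared sequence was measured over 50-base stretches of annotated transcripts. The fit was tested on simulated counts. Named genes are all mitochondrially encoded members, isoform groups, and by complex and direction the 3 of largest change past the threshold (mean of at least 1 CPM) and the 2 highest that did not pass; per list the 3 of smallest p in each direction. Other members named (Atp5a1, Atp5h, Atp5j, Atp5j2, Atp5o, Cox5a, Cox5b, Cox7c, Ndufab1, Ndufb5, Ndufb6, Ndufb7, Ndufb9, Ndufb10, Ndufc2, Ndufs1, Ndufs3, Ndufs4, Ndufs7, Ndufs8, Ndufv1, Ndufv3, Sdhaf1, Sdhaf2) and genes that overlap, copy or neighbour members were chosen after their values were seen. Alternatives were other scalings, filters, DESeq2 1.42.0, limma-voom (limma 3.58.1), batch and library subsets, and 2 added after the data were seen: thinned counts and counts of pseudogene copies added to the members. A member is counted but not reported here by itself. Figures used matplotlib 3.10.9.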

Additional observations from a re-analysis of the deposited data

Results flagged for a closer look

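The summed level of the mitochondrial mRNAs without mt-Co1 had a sample apart from its group. It was 2997 CPM in deficient library 2, beside 2475 to 2664 CPM in the other 6 deficient libraries. In that library mt-Cytb, mt-Nd1, mt-Nd2, mt-Nd4, mt-Nd5 and mt-Nd6 had their highest CPM of the deficient group. Chance flags about 1 in 20 groups by this measure.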

How the results depend on the processing

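No called member took the other sign in any of 27 other settings, and 36 of the 62 calls held in all that were run. Counts of nuclear subunits higher and lower stayed within 1.5 times of 31 and 21; leaving out each library gave 25 to 33 and 15 to 23. For mitochondrially encoded subunits leaving out each library gave 1 to 2 higher and 0 to 2 lower: 2 higher without deficient 5, with mt-Nd4 as the other, 0 lower without control 3, and 2 lower without deficient 2 or 5. For factors it gave 3 to 5 higher, 3 without control 1, and 3 lower.

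Mitochondrially encoded subunits higher were 2 with total counts only, no filter on low counts, or without deficient libraries 5, 6 and 7. Those lower were 0 without the filter, in batch 1 alone, or at adjusted p below 0.01. They were 2 without robust estimation, with DESeq2 or limma-voom, without deficient 5, 6 and 7, or with pseudogene copies added. With copies added they were mt-Nd2 and mt-Nd3, and the pooled counts of mt-Nd3 follow its copies. In batch 2 alone, which holds 1 control and 2 deficient libraries, 2 factors were higher and 1 lower; the lone control is assumed to vary like the other group, so these counts and those of the lists for batch 2 carry little weight.

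For the lists, batch 2 alone gave 5 electron carriers higher and 0 lower, 10 assembly factors higher and 3 lower, 26 ribosomal proteins higher, 2 regulators lower, 2 tricarboxylic acid cycle genes and 2 carriers higher, and 1 quality control gene lower. Batch 1 alone gave 5 cycle genes and 2 quality control genes lower. At adjusted p below 0.01, 0 electron carriers, 3 assembly factors and 2 quality control genes were lower and 4 cycle genes higher. Without the filter, 0 electron carriers, 3 assembly factors and 1 quality control gene were lower and 5 regulators higher. With total counts only, 0 electron carriers and 1 quality control gene were lower and 4 regulators higher. Leaving out each library gave 0 to 1 electron carriers lower (0 without control 1), 3 to 5 assembly factors lower (3 without control 1), 4 to 7 cycle genes higher (4 without control 2) and 1 to 4 quality control genes lower (1 without control 1, 2 without control 2). Beyond the smaller sets, the cause was not tested.

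Total counts only and no filter moved the median of all genes to 0.10 and 0.19 on the log2 scale, beside 0.02. No paired analysis was possible because the labels number no replicates, so no library of one diet is tied to a library of the other. Depth limits isoforms near 1 CPM, such as Cox6a2 in control libraries.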

Other observations

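Mitochondrial RNAs that encode no protein also differed in places. Of 22 mitochondrial tRNA genes 6 were tested, and 3 were lower in deficient libraries and 0 higher. mt-Tp, the proline tRNA gene on the strand opposite to mt-Cytb, had a mean of 19.8 ± 2.53 CPM (SD, n = 3) in control and 6.78 CPM in deficient libraries (log2 fold change -1.66, SE 0.14, adjusted p = 1.06e-07, edgeR). mt-Te, the glutamate tRNA gene that lies between mt-Nd6 and mt-Cytb, fell by 1.37 on the log2 scale (adjusted p = 0.00929, edgeR). Its mean was only 1.35 CPM in control and 0.557 CPM in deficient libraries, so the value rests on few reads. mt-Tw, next to mt-Nd2, fell by 0.48 (adjusted p = 0.0412, edgeR), with means of 6.21 and 4.74 CPM. mt-Tt, the threonine tRNA gene next to mt-Cytb, did not pass at -0.06. The ribosomal RNAs mt-Rnr1 and mt-Rnr2 did not pass, at 0.04 and -0.24, and their summed level ran from 39078 to 86374 CPM over the deficient libraries.

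Uqcrq, a member with a large change, lies near cytokine genes of helper T cells. It is on chromosome 11, 172 kb from Il4 and 200 kb from Il13 in the type 2 cytokine region. Of the 8 tested genes within 250 kb of Uqcrq, 2 were higher and 3 lower: Il13 rose by 1.21 and Hspa4 by 0.15 on the log2 scale, Rad50, Kif3a and Sept8 fell by 1.04, 0.82 and 0.44, and Il4 did not pass at 0.05. Cox6a2 on chromosome 7 lies 54.8 kb from Itgax, an integrin of dendritic cells, which did not pass at -0.12. Of the tested genes within 250 kb, 1 was higher and 5 lower of 9 for Cox6a2, 2 and 3 of 10 for Uqcrh, 5 and 1 of 10 for Atp5g1, and 5 and 1 of 14 for Cox6b2, beside 29.4% higher and 28.6% lower of all genes tested. The window was chosen after the members' values were seen.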
